A study of Mus musculus with 12 samples.

Results

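Complement mRNA was followed through 12 RNA sequencing libraries of sorted mouse hypothalamic cells. The 8 genes described were chosen by symbol from the 55809 gene symbols of the count tables, and all 8 were found. They are C1qa, C1qb and C1qc (the chains of C1q), C4b and C3 (components of the cascade), C3ar1 and C5ar1 (receptors of its cleavage products) and Serping1 (an inhibitor). C4b was included because it was higher after AAV-Cre, so its values in that comparison are given as a description with no test.

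The libraries formed 4 groups of 3. TOM positive and TOM negative cells came from the hypothalamus of untreated mice aged 4 weeks that carried Mc4r-Cre and the Ai14 reporter, in which Cre made under Mc4r control switches on tdTomato (TOM). AAV-Cre and AAV-GFP cells came from the paraventricular nucleus (PVH) of mice aged 26 weeks, 12 weeks after virus injection, and all of these mice were Otp fl/fl with the Ai14 reporter. Cells were sorted as TOM positive after AAV-Cre and as GFP positive after AAV-GFP, so these groups differ in the sorted reporter as well as in Cre. The labels give neither the promoters of the viruses nor the animals behind each library. The p-values therefore reflect how much these 3 libraries of a group vary, and that variation may be technical.

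Complement is a cascade of secreted proteins that tags surfaces for removal by phagocytes. C1q binds a target and starts the classical pathway, which cuts C4 and then C3. The fragments C3a and C5a act through the receptors encoded by C3ar1 and C5ar1, and the C1 inhibitor encoded by Serping1 blocks the proteases that C1q carries. In the brain, microglia are the main source of C1q, and C1q and C3 tag synapses for removal during development.

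Library totals ran from 13506018 to 27827853 counts. Every sorted fraction held glial mRNA, judged by marker lists and given here as summed CPM (counts scaled to a common library size by TMM within each table). Of 13 neuronal markers the sum was 530 to 686 CPM in TOM positive libraries, against 92.3 to 137 CPM in TOM negative ones, and 2610 to 3220 CPM in AAV-Cre and 1590 to 3110 CPM in AAV-GFP libraries. The sum of 10 oligodendrocyte markers was 82200 to 92900 CPM in TOM positive libraries, against 19900 to 26300 CPM in TOM negative ones. The sum of 12 microglial markers was 332 to 800 CPM in TOM positive libraries and 19000 to 22200 CPM in TOM negative ones. After the viruses it was 4130 to 6990 CPM in AAV-Cre and 2140 to 3200 CPM in AAV-GFP libraries. In such bulk samples, fewer cells of a type and less RNA per cell cannot be told apart.

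The C1q genes lie together on chromosome 4, minus strand, within 18675 bases (136607440 to 136626114 in the GENCODE vM30 annotation of the files). C1qa spans 136623228 to 136626114, C1qc 136617115 to 136620376 and C1qb 136607440 to 136613498, each in 3 exon blocks. No exon of any of the 8 genes overlaps an exon of another gene in that annotation, so counting without strand mixes no annotated antisense gene into them. Since the C1q genes moved together, the windows from 250 bases before to 50 bases after their starts are shown, from RefSeq on GRCm38.p6. The table held such windows for 5 of the 8 genes, C1qb, C1qc, C3, C3ar1 and C5ar1. The capitals mark GAGGAA, the core bound by PU.1, a transcription factor of microglia and other myeloid cells, on either strand.

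C1qb, chr4:136886151-136886450, minus strand: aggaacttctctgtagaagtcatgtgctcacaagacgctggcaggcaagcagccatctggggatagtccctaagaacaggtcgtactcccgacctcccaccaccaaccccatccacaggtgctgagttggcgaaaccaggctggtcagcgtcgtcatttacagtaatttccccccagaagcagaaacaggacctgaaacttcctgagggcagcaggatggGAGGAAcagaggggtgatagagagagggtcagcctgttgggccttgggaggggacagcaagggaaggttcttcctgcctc

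C1qc, chr4:136892865-136893164, minus strand: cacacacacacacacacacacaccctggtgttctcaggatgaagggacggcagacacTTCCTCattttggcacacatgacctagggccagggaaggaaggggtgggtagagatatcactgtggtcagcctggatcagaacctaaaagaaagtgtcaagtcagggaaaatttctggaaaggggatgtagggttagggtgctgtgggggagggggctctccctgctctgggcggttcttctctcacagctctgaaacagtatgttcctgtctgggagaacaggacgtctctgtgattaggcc

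GAGGAA or its reverse complement was found once in C1qb, beginning 30 bases before the start, and once in C1qc, on the opposite strand and beginning 193 bases before the start. It was found in none of the windows of C3, C3ar1 and C5ar1. Of all 32851 promoter windows 28.3% held it, so a match is a description of the letters and not a binding site. The core of interferon response elements (in 3.44% of all windows) and the STAT palindrome TTCNNNGAA (in 8.3%), also searched on both strands, were found in none of the 5 windows.

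In TOM positive cells the mRNAs of all 3 C1q chains fell together, with means 64.4-fold lower for C1qa, 51.0-fold lower for C1qb and 48.1-fold lower for C1qc than in TOM negative cells. C1qa stood at 30.5, 22.3 and 44.3 CPM in the TOM positive libraries, against 2330, 2160 and 1764 CPM in the TOM negative ones. C1qb had 57.3, 74.3 and 132.9 CPM in TOM positive libraries, against 5449, 4528 and 3519 CPM in TOM negative ones. C1qc had 57.6, 66.8 and 135.1 CPM in TOM positive libraries, against 5002, 4128 and 3343 CPM in TOM negative ones. For each chain the TOM positive libraries were all far below the TOM negative ones, and TOM positive replicate 3 was the highest of its group. The log2 fold changes (estimate ± SE) were -6.01 ± 0.31 for C1qa, -5.67 ± 0.39 for C1qb and -5.59 ± 0.40 for C1qc (edgeR adjusted p of 9.35e-05, 0.00021 and 0.000246).

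**Figure D1:**
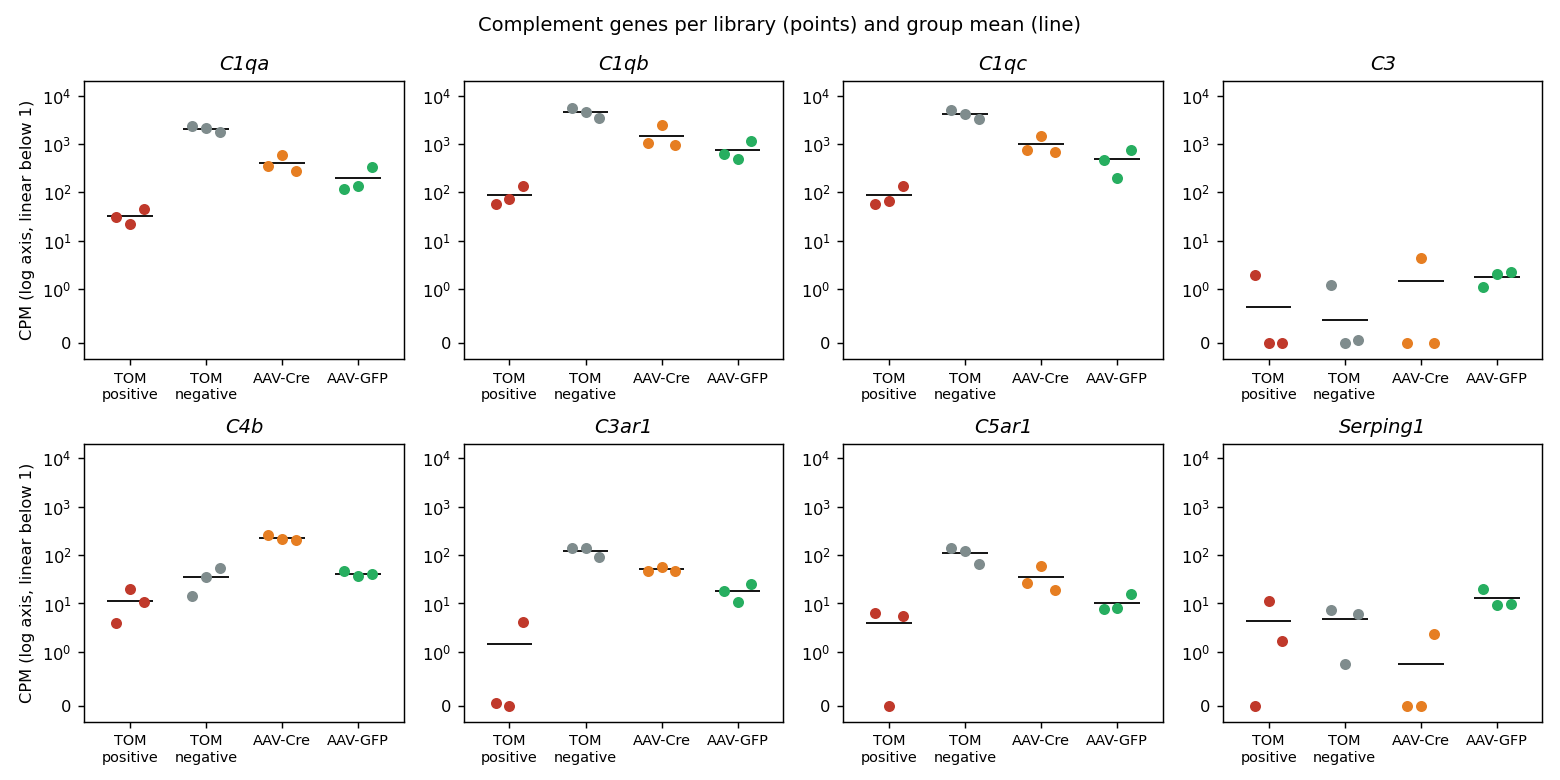
Normalized level (CPM, log axis, linear below 1) of the 8 complement genes in each of the 12 libraries (points, replicates 1 to 3 from left to right in each group) with the group mean (line). The 3 C1q chains and both receptors share one order of groups, TOM negative highest and TOM positive lowest, while C4b is highest after AAV-Cre and Serping1 is highest after AAV-GFP.

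Both anaphylatoxin receptors were lower in TOM positive cells as well. C3ar1, the receptor of C3a, reached 1, 0 and 127 counts in TOM positive libraries, against 2816, 2853 and 1992 in TOM negative ones. Nearly all of its TOM positive signal was therefore in replicate 3. The log2 fold change of C3ar1 was -6.38 ± 1.44 (edgeR adjusted p = 0.0185), and the call was lost with TOM negative replicate 1 or 2 left out, where edgeR gave an adjusted p of 0.0603 and 0.0707. Without TOM positive replicate 3 the fitted value was -12.2, against libraries at 0 or 1 count and so no bound, and without TOM positive replicate 2 it was -5.79.

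C5ar1, the main receptor of C5a, had 123, 0 and 162 counts in TOM positive libraries, against 2814, 2559 and 1403 counts in TOM negative ones. The groups did not overlap, and TOM positive replicate 2 held no count. The log2 fold change of C5ar1 was -4.83 ± 1.23 (edgeR adjusted p = 0.0284). The call was kept without TOM positive replicate 2, with a log2 fold change of -4.24, and lost with any other library left out. The edgeR adjusted p was 0.0627 and 0.0673 without TOM positive replicates 1 and 3, and 0.0874, 0.0933 and 0.0539 without TOM negative replicates 1, 2 and 3.

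C4b, the component cut by the C1 proteases, did not pass. It had 4.0, 19.7 and 10.6 CPM in TOM positive libraries, against 14.5, 35.5 and 54.6 CPM in TOM negative ones, and the groups overlapped. Its log2 fold change was -1.61 ± 0.68 (edgeR adjusted p = 0.134), and it passed with DESeq2 (DESeq2 adjusted p = 0.0483). Serping1 had 0, 333 and 51 counts in TOM positive libraries, against 143, 16 and 134 counts in TOM negative ones, with the highest and the lowest library both TOM positive. Its estimate on the log2 scale was -0.11 ± 1.65, which did not pass (edgeR adjusted p = 0.971), and its sign turned to 0.15 with library totals unscaled. C3, the central component, had 39, 0 and 0 counts in TOM positive libraries, against 24, 0 and 1 in TOM negative ones. It was too low for the count filter and was not tested.

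Of the 7 members tested, 5 fell and 0 rose, with a median log2 fold change of -5.59 against -0.02 over all genes tested. Of the 15228 genes tested, 10.4% rose, 13.4% fell and 23.9% passed in either direction. With library totals unscaled, all fold changes shifted by a median of 0.26, the split of all calls was 2204 higher and 1532 lower instead of 1589 and 2046, and the same number of members, 5, passed. Groups did not overlap for 5 of the 7 members, against 46.4% of all genes tested. All 12 microglial markers fell too, with a median of -5.23. Of 9 blood cell markers tested 6 fell, and the sum of 10 was 227 to 443 CPM in TOM positive libraries, against 22600 to 51300 CPM in TOM negative ones. Of 8 endothelial markers 4 fell, and their sum was 0.17 to 63.4 CPM in TOM positive libraries, against 382 to 521 CPM in TOM negative ones. The border macrophage list went the other way. Of its 7 markers tested 0 passed, with a median log2 fold change of 1.51. Their sum was 20.2 to 45.5 CPM in TOM positive libraries, against 8.69 to 15.4 CPM in TOM negative ones. The part of any of these cell types in the members' values was not tested.

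Set against microglial mRNA, the C1q sum lay between 29.8% and 70.7% of the marker sum in all 12 libraries. The summed CPM of the chains was 29.8%, 49.3% and 39.0% of the microglial marker sum in the TOM positive libraries and 65.4%, 48.7% and 45.3% in the TOM negative ones. It was 46.4%, 64.8% and 46.3% in AAV-Cre and 50.3%, 38.7% and 70.7% in AAV-GFP libraries. The groups overlapped in both comparisons (two-sided exact permutation p of 0.3 and 1.0, where 3 libraries against 3 cannot go below 0.1). The chains' own summed level ranged from 145.4 CPM in a TOM positive library to 12780 CPM in a TOM negative one.

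**Figure D2:**
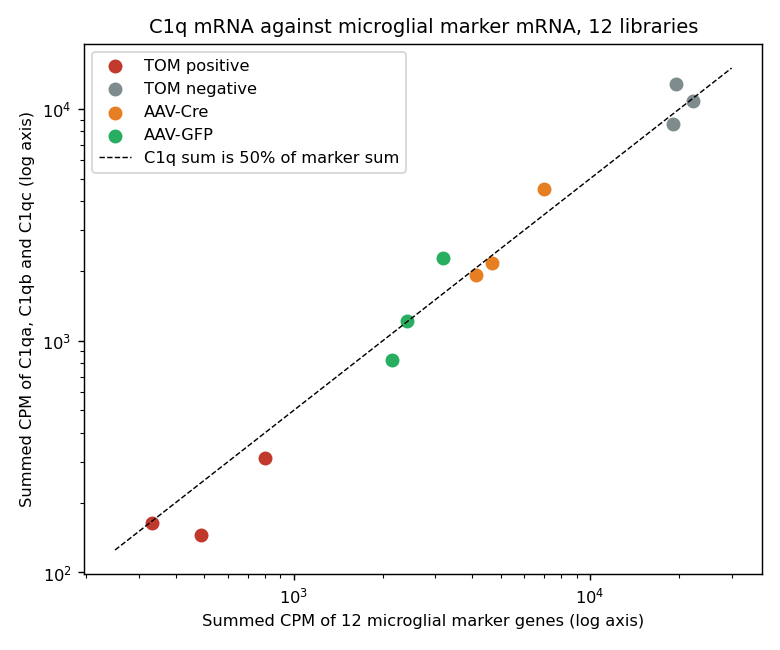
Summed CPM of C1qa, C1qb and C1qc against the summed CPM of 12 microglial marker genes (both log axes), 1 point for each of the 12 libraries. The dashed line marks a C1q sum of 50% of the marker sum, and the libraries lie between 29.8% and 70.7%.

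The receptors were measured against the same sum. C3ar1 stood at 0.0105%, 0% and 0.527% of the microglial marker sum in TOM positive libraries, against 0.724%, 0.621% and 0.479% in TOM negative ones (exact permutation p = 0.2). It stood at 1.02%, 0.819% and 1.12% in AAV-Cre and 0.744%, 0.49% and 0.779% in AAV-GFP libraries, groups that did not overlap (exact permutation p = 0.1, the smallest that 3 against 3 can give). C5ar1 averaged 0.655% ± 0.646 in TOM positive libraries, against 0.539% ± 0.194 in TOM negative ones, and 0.627% ± 0.213 in AAV-Cre and 0.394% ± 0.0911 in AAV-GFP libraries (SD, n = 3 each). Both pairs of groups overlapped for C5ar1 (exact permutation p of 0.8 and 0.2). These 6 tests of ratios, of which 0 could pass a threshold of 0.05 by design, carry no call.

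Within C1q, C1qb gave the most mRNA per length in every library. The exon lengths in the file headers are 1040 bases for C1qa, 1088 for C1qb and 1931 for C1qc, and were applied to all 12 libraries. Of the C1q counts per kilobase, C1qb took 51.3% ± 3.94 in TOM positive libraries, against 49.7% ± 1.15 in TOM negative ones, and 59.3% ± 2.74 in AAV-Cre and 62.3% ± 3.34 in AAV-GFP libraries. C1qa took 20.6% ± 4.9 in TOM positive libraries, against 24.4% ± 1.4 in TOM negative ones, and 17.8% ± 1.71 in AAV-Cre and 16.5% ± 3.77 in AAV-GFP libraries. C1qc took 28.1% ± 1.57, 25.9% ± 0.404, 22.9% ± 1.45 and 21.1% ± 5.87 in the TOM positive, TOM negative, AAV-Cre and AAV-GFP libraries (SD, n = 3 each throughout). The chain proportions in TOM positive libraries, with 2840, 4804 and 9407 C1q counts, overlapped those in TOM negative libraries, with 254438, 223717 and 188497, for C1qa and C1qb but not for C1qc. The lowest C1qb share of any PVH library was 57.3%, above the highest of any library of the younger mice, 54.9%. Tissue, age, genotype and count table differ between those sets and cannot be told apart. AAV-GFP replicate 2 had the highest C1qb share of the 12 libraries, 66.0%, and the lowest C1qc share, 14.8%.

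**Figure D3:**
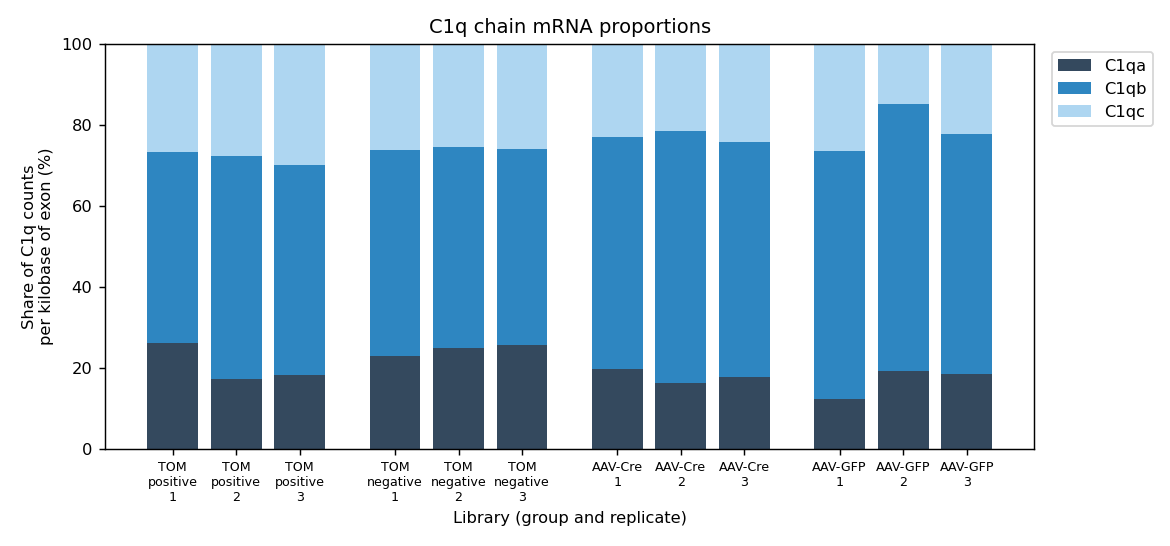
Share of C1q counts per kilobase of exon (%) taken by C1qa, C1qb and C1qc, as stacked bars for each library. C1qb takes 47.1% to 54.9% in the TOM positive and 48.6% to 50.9% in the TOM negative libraries, and 57.3% to 62.4% in the AAV-Cre and 59.5% to 66.0% in the AAV-GFP libraries.

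The other complement genes gave the setting for these members. Of 50 such genes in 5 lists, 24 were tested between TOM positive and TOM negative cells and 7 passed, 2 higher and 5 lower, beside the 23.9% of all genes. Of 8 other receptor genes, 5 were tested and 3 fell, Itgam, Itgb2 and C5ar2. Itgam and Itgb2 encode the chains of complement receptor 3, which binds cleaved C3. Itgb2 had 0, 89 and 231 counts in TOM positive libraries, against 4352, 4697 and 4957 in TOM negative ones, a log2 difference of -5.94 ± 1.11 (edgeR adjusted p = 0.01).

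Itgam had 36, 0 and 86 counts in TOM positive libraries, against 890, 1354 and 2058 in TOM negative ones (log2 fold change -5.44 ± 1.18, edgeR adjusted p = 0.0157). It shares 68.7% of its exon bases with the annotated gene Gm49368 on the same strand, and reads in shared bases may be left out of its count. Its call was lost without TOM positive replicate 1, TOM negative replicate 2 or TOM negative replicate 3 (edgeR adjusted p of 0.0508, 0.0629 and 0.0535). C5ar2, the second C5a receptor, had 1 count over the TOM positive group and 489 over the TOM negative group, and was 619-fold lower in TOM positive cells by summed counts after scaling (exact 95% interval 111 to 24500, counting error only, edgeR adjusted p = 0.00464). Itgax, a chain of complement receptor 4, had 0 counts in all TOM positive libraries and 173, 221 and 6 in the TOM negative ones, at least 169-fold lower against a limit of 3 counts over the group. It was not tested.

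Of 17 regulators, 12 were tested, 1 rose and 2 fell. Clu, which encodes clusterin, an inhibitor of the terminal complex and a major astrocyte product, reached 2036, 2589 and 2191 CPM in TOM positive libraries, against 4820, 5362 and 4015 CPM in TOM negative ones. Its log2 difference was -1.06 ± 0.16 (edgeR adjusted p = 0.00463). Vtn, which encodes vitronectin and marks pericytes in the brain, had 0, 37 and 54 counts in TOM positive libraries, against 1153, 1236 and 1243 in TOM negative ones (log2 fold change -5.79, edgeR adjusted p = 0.00769). Cd59a, a membrane protein that blocks the terminal complex, rose by 1.14 ± 0.32 on the log2 scale (edgeR adjusted p = 0.0376). The Cd59a call was lost with a replicate block (edgeR adjusted p = 0.0579) and with all 12 libraries in one fit (edgeR adjusted p = 0.074). It was also lost without TOM positive replicate 1 or 2 (edgeR adjusted p of 0.084 and 0.0924) and without TOM negative replicate 2 or 3 (edgeR adjusted p of 0.143 and 0.114). The oligodendrocyte marker sum was also higher in TOM positive libraries, as given above, and its part in the rise was not tested.

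Of the 15 genes that start the classical and lectin pathways, 5 were tested and 1 rose. This was Fcna, which encodes a ficolin, with 20, 137 and 160 counts in TOM positive libraries, against 7, 7 and 3 in TOM negative ones. It shares 6.55% of its exon bases with the antisense gene Fcnaos, and their reads cannot be told apart there without strand. The difference of 3.71 ± 1.03 on the log2 scale (edgeR adjusted p = 0.0374) rested on few counts, and with any 1 of 5 libraries left out the call was lost. The edgeR adjusted p was 0.0754 and 0.0974 without TOM positive replicates 2 and 3, and 0.108, 0.13 and 0.124 without TOM negative replicates 1, 2 and 3. The Fcna call was lost too without the count filter, with a replicate block and with all 12 libraries in one fit (edgeR adjusted p of 0.0815, 0.154 and 0.21). C1ra, which encodes the first protease carried by C1q, had 40 counts over the TOM positive group, against 75 over the TOM negative one. C1s1, its partner protease gene, had 0 counts in the TOM positive group, against 10 in the TOM negative one. Of the 3 genes of the alternative pathway and the 7 of the terminal pathway, 1 each was tested and 0 passed, and 5 terminal genes had no count in any of the 6 libraries. At an unadjusted p under 0.05, which 36.4% of all genes had with edgeR, 0 of these genes passed as well.

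**Figure D4:**
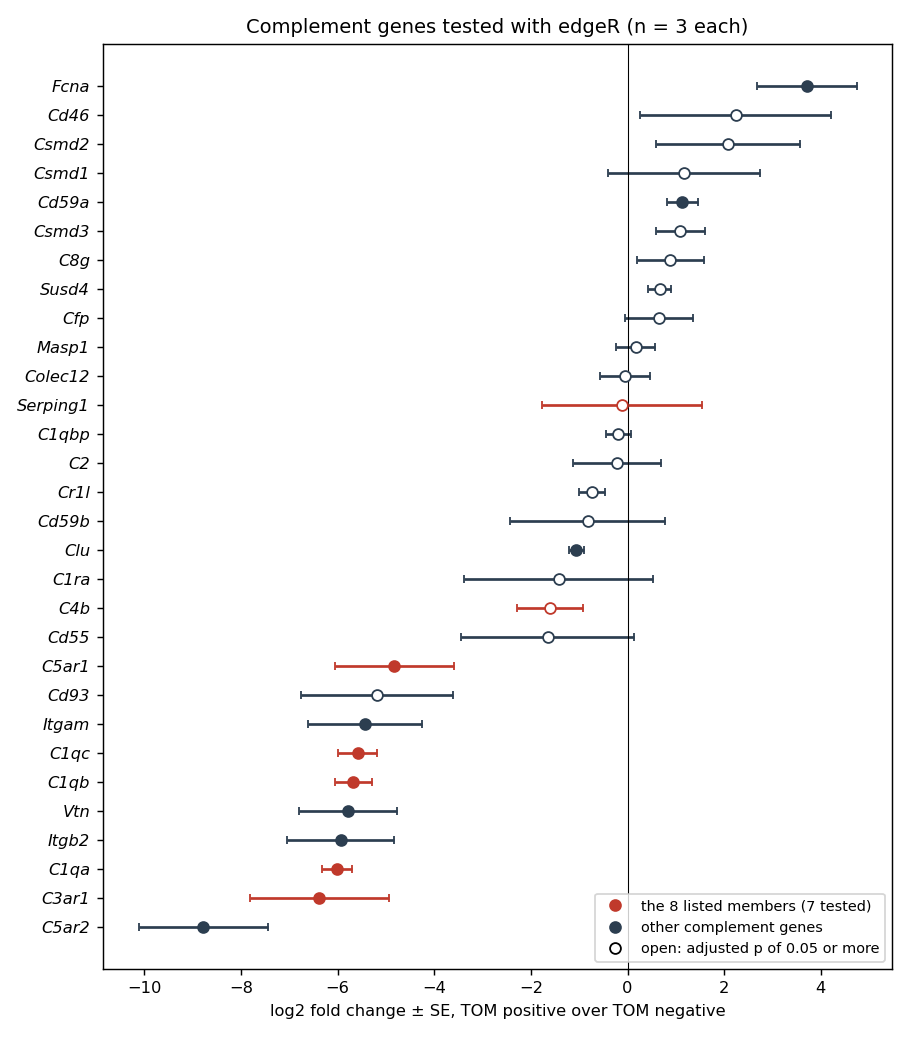
Log2 fold change (point) and SE (bar) of TOM positive over TOM negative cells for complement genes tested with edgeR. The C1q chains and receptors lie between -8.78 and -4.83 apart from C1qbp, and open points did not pass.

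C4b, chosen for its level after AAV-Cre, was several-fold higher there in every library. It had 4188, 3142 and 3027 counts in AAV-Cre libraries, against 889, 519 and 571 in AAV-GFP libraries. On the CPM scale this was 260.6, 212.7 and 207.6 in AAV-Cre and 45.9, 37.5 and 40.1 in AAV-GFP libraries. The group means were 227.0 ± 29.3 CPM in AAV-Cre and 41.2 ± 4.27 CPM in AAV-GFP libraries (SD, n = 3 each). Their ratio was 5.51, the lowest AAV-Cre library was 4.53 times the highest AAV-GFP library, and the log2 fold change was 2.46.

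C4b lies on chromosome 17, minus strand, 34947354 to 34962856 in the vM30 annotation, 65212 bases from its near-identical copy C4a. Of all windows of 50 bases in the 5379-base C4b transcript of GENCODE vM21, 35.2% also occur in C4a transcripts, and 16.5% of windows of 100 bases do. Reads that map to both were not counted, so the AAV libraries may understate C4b. The counts assigned to C4a were 2, 0 and 0 in AAV-Cre and 4, 0 and 0 in AAV-GFP libraries.

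Glial marker lists were measured in the same libraries. The oligodendrocyte sum was 49100 to 63000 CPM in AAV-Cre and 14800 to 54000 CPM in AAV-GFP libraries, with 3 of 10 markers that rose. The astrocyte sum was 9280 to 12300 CPM in AAV-Cre and 8920 to 21100 CPM in AAV-GFP libraries, with 0 of 10 markers that passed. The microglial sum was 4130 to 6990 CPM in AAV-Cre and 2140 to 3200 CPM in AAV-GFP libraries, and 1 of 12 markers rose, Csf1r, by 1.51 ± 0.27 on the log2 scale (edgeR adjusted p = 0.0398). Of all genes tested 0.630% rose. With a replicate block, or with any 1 AAV-GFP library left out, 0 genes rose, so these marker calls were lost. The part of these lists in the C4b values was not tested.

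Relative to each of these sums C4b was higher after AAV-Cre. It was 0.45%, 0.338% and 0.423% of the oligodendrocyte sum in AAV-Cre and 0.123%, 0.254% and 0.0743% in AAV-GFP libraries. It was 2.13%, 2.29% and 1.76% of the astrocyte sum in AAV-Cre and 0.217%, 0.42% and 0.202% in AAV-GFP libraries. It was 5.6%, 3.04% and 5.03% of the microglial sum in AAV-Cre and 1.89%, 1.76% and 1.25% in AAV-GFP libraries. In none of the 3 ratios did the groups overlap, and since C4b was chosen on this contrast no test is given.

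Of 15 reactive glia genes tested, 0 rose and 2 fell after AAV-Cre, with a median log2 fold change of 0.29 against -0.16 over all genes. Vim, an intermediate filament gene, had 16.3, 26.0 and 13.9 CPM in AAV-Cre libraries, against 58.2, 93.7 and 75.1 CPM in AAV-GFP ones (log2 fold change -2.01 ± 0.36, edgeR adjusted p = 0.038). S1pr3, a sphingosine phosphate receptor gene, had 0, 1 and 0 counts in AAV-Cre libraries, against 1752, 427 and 283 in AAV-GFP ones (edgeR adjusted p = 0.0202). For both, every AAV-Cre library was below every AAV-GFP library, while groups did not overlap for 28.5% of all genes. Both calls were lost with a replicate block and without AAV-GFP replicate 1 or 3, where 0 genes passed. Serpina3n and Gfap did not pass. Serpina3n, a protease inhibitor gene, averaged 44.1 ± 3.14 CPM in AAV-Cre and 34.3 ± 11.1 CPM in AAV-GFP libraries (log2 fold change 0.36 ± 0.33, edgeR adjusted p = 0.629). Gfap, the astrocyte filament gene, averaged 552.6 ± 285 CPM in AAV-Cre and 452.9 ± 183 CPM in AAV-GFP libraries (log2 fold change 0.29 ± 0.47, edgeR adjusted p = 0.808). Of 13 interferon response genes 0 passed, and their summed level was 1840 to 5030 CPM in AAV-Cre and 823 to 1340 CPM in AAV-GFP libraries.

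**Figure D5:**
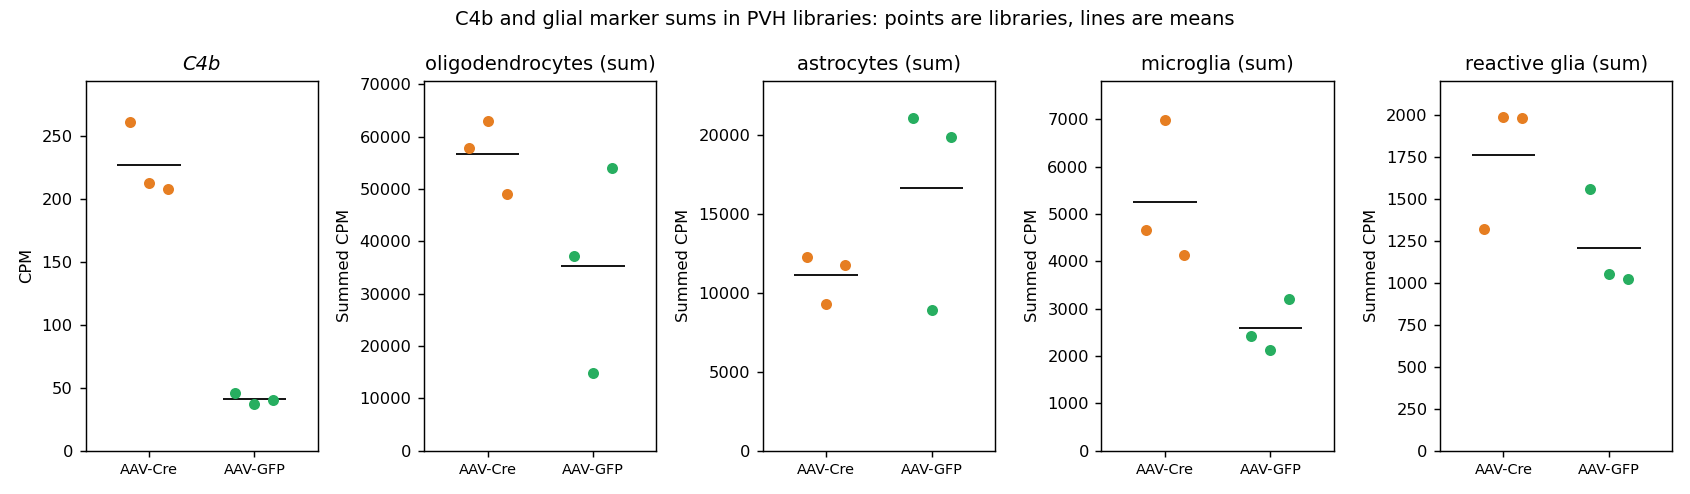
CPM of C4b and summed CPM of 4 glial marker lists in the 3 AAV-Cre and 3 AAV-GFP libraries (points, replicates 1 to 3 from left to right) with group means (lines), axes from 0. C4b is 207.6 to 260.6 CPM after AAV-Cre and 37.5 to 45.9 CPM after AAV-GFP. The microglial sum does not overlap between the groups either, at 4130 to 6990 CPM after AAV-Cre and 2140 to 3200 CPM after AAV-GFP. The oligodendrocyte, astrocyte and reactive glia sums overlap.

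The other members in this comparison did not pass. Of 7 tested with edgeR 0 passed, against 0.630% that rose, 1.97% that fell and 2.60% that passed in either direction among the 15408 genes tested, and 2 had an unadjusted p under 0.05, as did 18.8% of all genes. With library totals unscaled, fold changes over all genes shifted by a median of 0.16, the calls over all genes were 127 higher and 241 lower instead of 97 and 303, and 0 of these members passed. DESeq2 called 2, C3ar1 and C5ar1, but over all genes it called 1884, against 400 with edgeR. Groups did not overlap for 3 of the 7, against 28.5% of all genes.

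C3ar1 had 766, 845 and 675 counts in AAV-Cre and 349, 145 and 355 counts in AAV-GFP libraries, all AAV-Cre libraries being higher. The log2 difference was 1.5 ± 0.39 (edgeR adjusted p = 0.0826, DESeq2 adjusted p = 0.0127). C5ar1 had 26.4, 60.3 and 18.6 CPM in AAV-Cre and 7.6, 8.0 and 15.8 CPM in AAV-GFP libraries, a log2 difference of 1.75 ± 0.58 (edgeR adjusted p = 0.157, DESeq2 adjusted p = 0.0413). Without AAV-Cre replicate 2 the log2 difference of C5ar1 was 1.1. For both receptors the groups did not overlap. The microglial sum did not overlap either, as given above, and its part in the receptor values was not tested.

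The C1q chains were about 2 times as high on average after AAV-Cre, within the spread of the libraries. C1qa had 346.8, 605.5 and 272.6 CPM in AAV-Cre and 119.0, 136.7 and 340.3 CPM in AAV-GFP libraries. C1qb had 1059, 2436 and 941.2 CPM in AAV-Cre and 623.9, 493.1 and 1156 CPM in AAV-GFP libraries. C1qc had 754.7, 1486 and 697.0 CPM in AAV-Cre and 475.8, 196.9 and 767.4 CPM in AAV-GFP libraries. In each case AAV-Cre replicate 2 was the highest and AAV-GFP replicate 3 lay above AAV-Cre replicate 3, so the groups overlapped. With 1 library left out the log2 fold change was 0.633 to 1.76 for C1qa, 0.393 to 1.49 for C1qb and 0.589 to 1.63 for C1qc. For each chain the lowest value came without AAV-Cre replicate 2 and the highest without AAV-GFP replicate 3. With all 6 libraries the log2 fold changes were 1.04 ± 0.49, 0.96 ± 0.48 and 1.03 ± 0.53 for C1qa, C1qb and C1qc (edgeR adjusted p of 0.31, 0.336 and 0.35).

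Serping1 ran the other way without passing. It had 0, 0 and 34 counts in AAV-Cre libraries and 391, 126 and 139 in AAV-GFP libraries, all AAV-GFP libraries being higher. The log2 difference was -4.06 ± 1.78 (edgeR adjusted p = 0.273). Without AAV-Cre replicate 3, which held its only counts in that group, it passed in a fit against libraries at 0 (edgeR adjusted p = 0.0431). Endothelial, mural and ependymal lists had lower sums in the same libraries. The sum of 8 endothelial markers was 0.0622 to 35 CPM in AAV-Cre and 237 to 433 CPM in AAV-GFP libraries, with Cdh5 and Emcn at 0 in AAV-Cre. The sum of 10 mural and fibroblast markers was 19 to 33.9 CPM in AAV-Cre and 85.2 to 103 CPM in AAV-GFP libraries, and that of 7 ependymal and tanycyte markers was 5.21 to 24.1 CPM in AAV-Cre and 554 to 1030 CPM in AAV-GFP libraries. Their part in the Serping1 values was not tested.

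C3 stayed near the detection limit. It had 0, 66 and 0 counts in AAV-Cre and 21, 28 and 32 counts in AAV-GFP libraries, and AAV-Cre replicate 2 was the highest of all while the other two were at 0. The log2 difference of -0.26 ± 1.90 did not pass (edgeR adjusted p = 0.966), and its sign turned without AAV-Cre replicate 1 or 3 or without AAV-GFP replicate 3.

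Of the other complement genes 25 were tested between AAV-Cre and AAV-GFP cells. With edgeR 0 passed, and 10 had an unadjusted p under 0.05, 5 of them higher and 5 lower, beside 18.8% of all genes. Itgax had 466, 290 and 192 counts in AAV-Cre and 0, 17 and 31 in AAV-GFP libraries, 4.18 ± 1.31 higher on the log2 scale without passing (edgeR adjusted p = 0.14). Itgam had 30.0, 23.5 and 25.4 CPM in AAV-Cre and 9.5, 9.5 and 8.1 CPM in AAV-GFP libraries (log2 fold change 1.54 ± 0.40, edgeR adjusted p = 0.0786). Both integrin genes are used by microglia and other myeloid cells. Cd93, an endothelial and myeloid surface protein gene, was not counted in any AAV-Cre library (0 counts) and had 39, 26 and 62 counts in AAV-GFP libraries. It was at least 40.5-fold lower against a limit of 3 counts over the group (edgeR adjusted p = 0.0528). Among the others that were lower without passing, Cpn1, which encodes a chain of the carboxypeptidase that trims C3a and C5a, had 0, 0 and 33 counts in AAV-Cre libraries, against 524, 250 and 118 in AAV-GFP ones (edgeR adjusted p = 0.214). Cd55, a membrane regulator gene, had 0, 0 and 62 counts in AAV-Cre libraries, against 593, 229 and 187 in AAV-GFP ones (edgeR adjusted p = 0.3). Cd59b, a relative of Cd59a, had a log2 fold change of -1.81 ± 0.75, Clu one of -0.76 ± 0.30 and C1qbp, which encodes a C1q binding protein, one of -0.64 ± 0.25 (edgeR adjusted p of 0.251, 0.229 and 0.226). For each of these 5 genes every AAV-Cre library was under every AAV-GFP library. Groups did not overlap, in either direction, for 28.5% of all genes tested. Masp1, a protease gene of the lectin pathway, averaged 18.7 ± 6.95 CPM in AAV-Cre and 4.77 ± 3.28 CPM in AAV-GFP libraries (SD, n = 3 each, edgeR adjusted p = 0.218). Itgb2, and Csmd3 of the regulator list, were also higher, by 1.34 ± 0.45 and 1.38 ± 0.47 on the log2 scale. Neither passed (edgeR adjusted p of 0.164 and 0.17), and for both the groups did not overlap.

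Across the 4 groups the members fell into separate orders of level, given as a description. For the C1q chains and both receptors the order was TOM negative, AAV-Cre, AAV-GFP and TOM positive. Neighbouring groups did not overlap for C3ar1 and C5ar1, and for the C1q chains AAV-Cre and AAV-GFP overlapped. For C4b the order was AAV-Cre, AAV-GFP, TOM negative and TOM positive, with only AAV-Cre clear of its neighbour. For Serping1 AAV-GFP was clear of TOM negative, and TOM negative, TOM positive and AAV-Cre overlapped in turn. For C3 all neighbours overlapped. Per kilobase of exon, the mean levels in TOM negative libraries were 4135 CPM per kilobase for C1qb, 2153 for C1qc and 2005 for C1qa, against 42.7 for C5ar1, 28.7 for C3ar1, 6.12 for C4b, 2.02 for Serping1 and 0.0811 for C3. In AAV-Cre libraries C4b, at 39.9 CPM per kilobase, was above C5ar1 at 13.7 and C3ar1 at 11.7.

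Pairs of members were correlated over the 12 libraries on the log2 CPM scale, as a description of libraries that share groups and depth. Pearson's r was 0.982 to 0.986 between C1q chains and 0.853 to 0.941 between a chain and a receptor. C4b reached 0.401 to 0.506 with the chains, and Serping1 -0.00303 to 0.0516. Among 9492 genes with a mean of at least 10 CPM, the genes most like the mean of the C1q chains were Spi1, Ly86, Coro1a, Trem2 and Laptm5 (Pearson's r of 0.994, 0.994, 0.993, 0.992 and 0.992). Spi1 encodes PU.1, and stood at 4.38 ± 1.65 CPM in TOM positive libraries, against 335 ± 50.4 CPM in TOM negative ones, and 90.4 ± 43.4 CPM in AAV-Cre and 36.9 ± 10.1 CPM in AAV-GFP libraries (SD, n = 3 each).

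The genes most like C4b were Pcif1, Adamts1, Nell2, Garnl3 and Enpp1 (Pearson's r of 0.931, 0.924, 0.904, 0.883 and 0.883 over 12 libraries). Adamts1, a secreted protease gene, stood at 7.19 ± 1.41 CPM in TOM positive libraries, against 14.5 ± 7.06 CPM in TOM negative ones, and 125 ± 37.6 CPM in AAV-Cre and 32.2 ± 18.6 CPM in AAV-GFP libraries. Pcif1, ranked first, stood at 154 ± 33.3 CPM in AAV-Cre and 99.7 ± 18.5 CPM in AAV-GFP libraries. Since C4b was chosen for its level after AAV-Cre, high levels there among its closest genes follow from that choice. The genes most like Serping1 were Gmds, Rhbdd2, Tekt4, Rcn2 and Rsph9 (Pearson's r of 0.869, 0.844, 0.84, 0.839 and 0.835). Tekt4 and Rsph9 encode parts of motile cilia, and Rsph9 averaged 24 ± 12.8 CPM in AAV-Cre and 122 ± 33.7 CPM in AAV-GFP libraries. For C3 the closest were Cert1, Ppa1, Arl6ip4, Kxd1 and Xylb (Pearson's r of 0.862, 0.837, 0.828, 0.786 and 0.779), with C3 at 0 or 1 counts in 6 of the 12 libraries.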

How the data were processed

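The authors deposited raw read counts for each gene symbol in 2 tables. Per the submitters' processing notes, FastQC, Trim Galore, STAR and featureCounts were used on mm10, and per the file headers the AAV libraries were counted with featureCounts 2.0.1 on GENCODE vM30 without strand or multi-mapping reads. For the TOM table the counting settings were not given in the sources used here. Exon lengths are those the authors deposited in the file headers. The libraries were made from RNA of sorted cells with a SMART-Seq kit, per the labels' protocols, and no molecular identifiers are mentioned, so intervals and bounds cover counting error only. The build named in the notes and the annotation in the headers belong to different mouse assemblies, and no coordinate was converted.

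The 8 genes, the marker lists and the tests were chosen with earlier results of these data known. Fits used edgeR 4.0.16 under R 4.3.3, separately for the 6 libraries of each comparison (TMM, filterByExpr at its default minimum count of 10, two-sided quasi-likelihood test, Benjamini-Hochberg over all genes tested, threshold 0.05). SEs came from the F statistic. CPM used TMM-scaled totals of each table. Likeness and the correlations of members used Pearson's r of log2 CPM (prior count 2). For these, and for the minimum mean of 10 CPM, TMM was taken over all 12 libraries together. Named genes are the 8 members, the other complement genes that passed, the 5 closest in pattern, and Serpina3n and Gfap beside C4b. Other complement genes with a mean of at least 10 CPM in some group are named too, though not each in both comparisons. Cr1l, Susd4 and Colec12 met that mean and passed in neither comparison, and their values are not given. Cd93, Cd59b, C1ra, C1s1, Csf1r, Vim and S1pr3 were picked once their values had been seen. DESeq2 1.42.0, other scalings, no filter, the replicate number as a block, leaving out single libraries and all 12 libraries in one fit were tried. The steps were tested on simulated data. No pair of libraries of a group agreed within sampling noise (chi-square per degree of freedom of 47.7 or more). One gene of the complement lists counts in the totals but is not reported here by name or value.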

Additional observations from a re-analysis of the deposited data

How the results depend on the processing

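The C1q chains kept their direction and call in all 12 alternatives between TOM positive and TOM negative cells. For C4b after AAV-Cre the 12 alternatives gave log2 fold changes of 2.35 to 2.61, a description of the libraries it was chosen on. Over all genes, 3635 passed in the TOM comparison, 5521 with DESeq2 and 1511 to 3547 with 1 library left out, the fewest without TOM negative replicate 2. Members that passed there were 5, and 3 to 5 with 1 library left out, with 3 without TOM negative replicate 1 or 2. In the AAV comparison 400 genes passed, 712 without a count filter, 1884 with DESeq2, 698 with all 12 libraries in one fit and 0 to 296 with 1 library left out: 122 without AAV-Cre replicate 2, and 0, 2 and 0 without AAV-GFP replicates 1, 2 and 3. Of its members other than C4b 0 passed, 2 with DESeq2 and 0 to 1 with 1 library left out. Deviations from the group means correlated at -0.0702 to 0.0246 between libraries of the same replicate number. These values cannot tell whether such libraries share animals, which the labels do not give. With a replicate block 1987 genes passed in the TOM and 0 in the AAV comparison, and the TOM calls of C5ar1, Cd59a and Fcna were lost. With TOM positive replicate 3 left out the log2 fold change was -6.29 for Itgam, -7.13 for Itgb2 and -6.43 for Vtn, and with TOM positive replicate 2 left out -4.85 for Itgam and -10.4 for C5ar2. The log2 fold change of Serping1 in the TOM comparison was 0.149 with library totals and -2.45 to 0.469 with 1 library left out. That of C3 after AAV was -7.81 to 0.319, where the lowest is a fitted value against libraries at 0 and no bound. The mean C1qb share of C1q was 55.7% per kilobase and 47.2% by counts alone, as C1qc has the greatest exon length. The order of group means was the same for 8 of 8 members with TMM over all libraries and for 7 of 8 with library totals. The cause of the other changes was not tested. C3, Serping1 and C5ar2 had fewer than 10 counts in several libraries, which limits the precision of their values.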
